A study of Mus musculus with 2 samples.

Results

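Neuropeptide precursors, the granins that are packed with them, and the enzymes that process them were described in embryonic mouse hindbrain, the tissue that forms the medulla, pons and cerebellum. The set was a list of 40 genes out of 43346 measured, matched by gene symbol: 30 precursors, 7 granins and related granule proteins, and 3 processing enzymes. RNA longer than 200 nt came from hindbrains of the B6NCrl strain at embryonic day 16.5. There was 1 group with 2 biological replicates, each 1 library from a pool of male and female embryos with no treatment named. Replicate 2 was made from 37 embryos, while for replicate 1 no number is given in the sources. Each library was made from 10 ng of RNA with spike-ins added, and the tissue and the libraries came from different laboratories.

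A neuropeptide is made as a longer precursor that enters the secretory pathway and is packed into dense-core granules. There, prohormone convertases cut it at pairs of basic residues and carboxypeptidase E trims the exposed ends, and the finished peptide is released when the cell fires. Granins are acidic proteins stored in the same granules, and several are themselves cut into peptides. In the hindbrain such peptides are known from nociceptive, respiratory and autonomic circuits. These include substance P, the enkephalins, somatostatin and calcitonin gene-related peptide (CGRP).

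Levels are TPM, a relative abundance corrected for transcript length, as deposited, and counts are the authors' expected counts. The libraries summed to 42467811 and 42017008 expected counts in replicates 1 and 2. With 1 group and 2 libraries, permutation cannot give a p below 0.5, so no p is given, and differences are read against the SD of the 2 replicates and the deposited TPM interval of each library. The confidence level of that interval is not stated. In pooled bulk tissue, fewer cells of a type and less RNA per cell cannot be told apart. Of 12 hindbrain markers, 11 reached 1 TPM in both libraries, and En2 did not, at 0.34 and 0.46 TPM. The pools also differed in markers of other tissues. A list of 12 muscle and cartilage genes summed to 382.53 TPM in replicate 1 and 27.02 TPM in replicate 2, and a list of 13 forebrain genes to 78.48 and 44.72 TPM. Only 3 of the 13 forebrain genes reached 1 TPM in both libraries. The median of that list was 1.84 TPM in replicate 1 and 0.07 TPM in replicate 2, so its sums do not describe most of its genes.

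For Calca, Calcb, Tac1 and Scg2, the sequences show what the authors' counts had to separate. Calca gives either CGRP or calcitonin by a choice of last exons, and Calcb is a neighbouring gene for a second CGRP. The following are the last coding part of the CGRP transcript of Calca (chr7:114632443-114632599, minus strand), that of Calcb (chr7:114721975-114722134, plus strand), and that of the calcitonin transcript of Calca (chr7:114633605-114633785, minus strand), all on GRCm38 from the GENCODE transcripts, 5′ to 3′. Capitals mark the bases that do not match between the first and second.
Calca, CGRP: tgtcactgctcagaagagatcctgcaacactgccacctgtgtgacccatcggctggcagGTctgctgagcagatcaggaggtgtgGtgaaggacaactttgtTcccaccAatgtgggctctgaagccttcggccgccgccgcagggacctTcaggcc
Calcb: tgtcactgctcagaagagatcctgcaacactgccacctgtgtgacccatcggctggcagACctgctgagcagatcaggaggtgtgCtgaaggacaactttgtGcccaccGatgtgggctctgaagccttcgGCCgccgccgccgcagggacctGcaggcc
Calca, calcitonin: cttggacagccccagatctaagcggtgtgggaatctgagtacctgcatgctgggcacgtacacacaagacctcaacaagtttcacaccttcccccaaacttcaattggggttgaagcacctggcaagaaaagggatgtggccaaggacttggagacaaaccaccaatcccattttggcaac
The CGRP parts of Calca and Calcb were identical at 151 of 160 aligned positions, or 94.4%. The calcitonin part was 44.0% identical to that of Calcb. Reads from this stretch can therefore tell CGRP from calcitonin readily, but have few bases by which to tell Calca from Calcb.

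Tac1 encodes substance P, and its alternative exons decide which other tachykinins the precursor holds. The exon missing from the gamma transcript (chr6:7557216-7557260, plus strand, 45 bases) and the exon missing from the alpha transcript (chr6:7559099-7559152, plus strand, 54 bases), which carries neurokinin A, are shown in lower case throughout.
Tac1, 45 bases: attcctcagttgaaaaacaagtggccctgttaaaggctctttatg
Tac1, 54 bases: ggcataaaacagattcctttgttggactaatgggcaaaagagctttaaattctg
Scg2, the precursor of secretoneurin, has 1 listed transcript with, and 1 without, a stretch of 120 coding bases within the main coding exon (chr1:79435932-79436051, minus strand). In it, capitals mark the first and last 2 bases, which read as the letters at the ends of an intron.
Scg2, 120 bases: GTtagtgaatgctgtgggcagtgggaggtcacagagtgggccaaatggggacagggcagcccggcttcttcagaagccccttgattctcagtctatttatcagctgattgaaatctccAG
The shares of these transcripts are given after the levels.

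All 40 members had at least 1 count in each library, and 33 reached 1 TPM in both, namely 23 of 30 precursors, 7 of 7 granins and 3 of 3 enzymes. Of 21474 protein-coding genes, 63.5% reached that level. The 7 precursors below it in at least 1 library were Tac2, Avp, Hcrt, Cort, Pmch, Oxt and Ucn, and the last 5 had fewer than 10 counts in each library. The median of mean TPM was 6.62 for precursors, 174 for granins and 20.3 for the enzymes. It was 19.0 for protein-coding genes with a mean of at least 1 TPM, a limit that was not set for the precursors. Nmb at 6.43 TPM and Crh at 6.80 TPM lie on either side of the precursor median. They were above 51.3% and 52.0% of all protein-coding genes. The members thus ran from Ucn at 0.15 ± 0.071 TPM to Cpe at 649 ± 70.9 TPM (SD, n = 2).

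**Figure D1:**
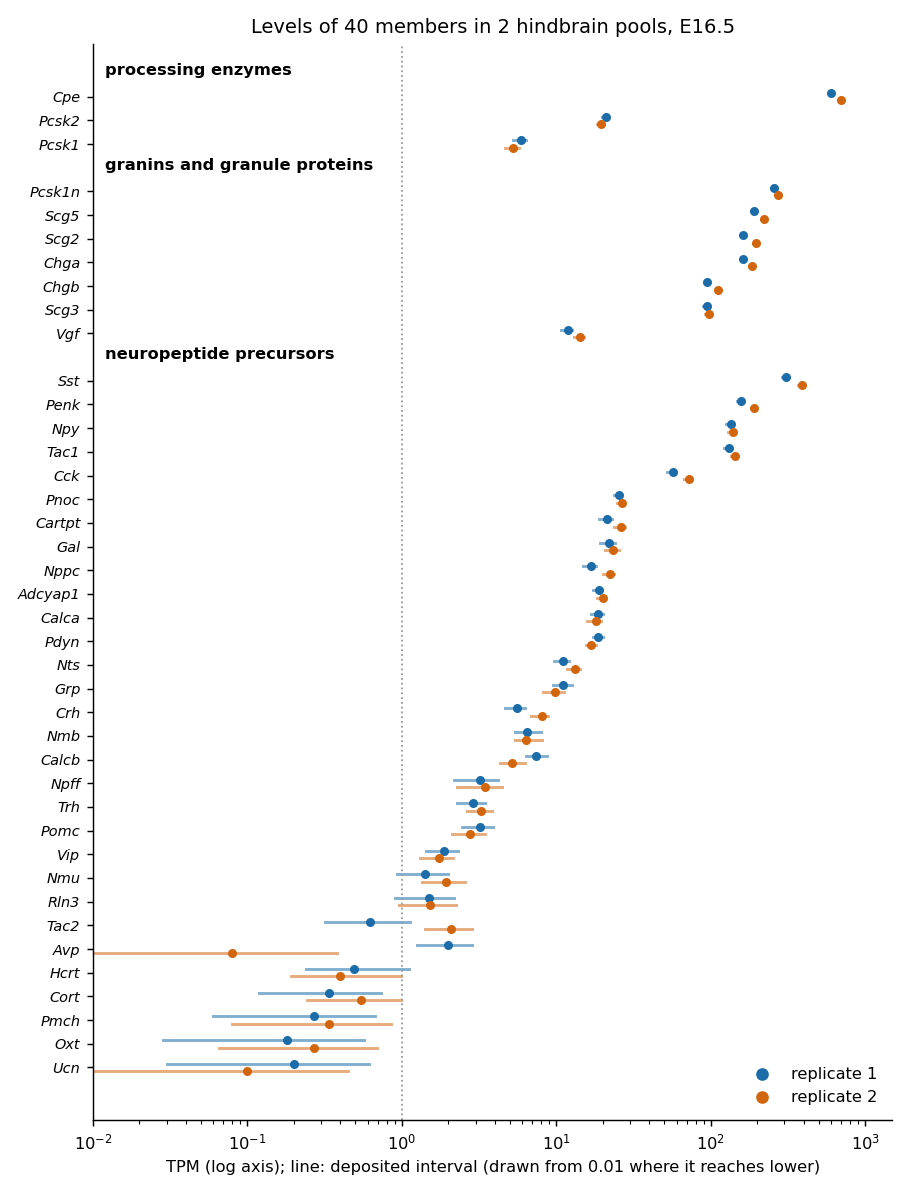
TPM (log axis) of each of the 40 members in replicate 1 (blue) and replicate 2 (orange), by role and ordered by mean TPM, with the deposited interval of each library as a line and a dotted line at 1 TPM. The granins except Vgf lie near 100 TPM or above, Cpe lies far above the other enzymes, and 5 precursors lie below 1 TPM in both libraries.

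Somatostatin, enkephalin, neuropeptide Y and tachykinin precursors made up most of the peptide message. Sst, whose product somatostatin inhibits neurons and hormone release (chromosome 16, 23889573 to 23890958, minus strand), was at 304.69 TPM in replicate 1 and 387.07 in replicate 2. Penk, the precursor of the enkephalins (chromosome 4, 4133531 to 4138819, minus strand), was at 156.00 and 191.49 TPM. Npy, the precursor of neuropeptide Y (chromosome 6, 49822710 to 49829507, plus strand), was at 135.47 and 139.70 TPM. These 3 genes stood in this order in both libraries, with the intervals of neighbours apart in each. Tac1 (chromosome 6, 7554879 to 7565834, plus strand), at 130.50 and 142.91 TPM, changed places with Npy between the libraries, and their intervals overlapped. Cck, the cholecystokinin precursor, followed at 57.04 and 72.58 TPM, apart from the genes on either side of it.

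The summed TPM of the 30 precursors was 985.43 in replicate 1 and 1147.71 in replicate 2. Sst alone held 30.9% and 33.7% of it, the top 4 held 73.7% and 75.0%, and the top 10 held 90.1% and 91.7%. The other 20 precursors therefore held little of the precursor message. In mean level, Sst was above 98.3% of protein-coding genes and Tac1 above 94.4%.

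A middle group of precursors lay between about 10 and 30 TPM, and their order was mostly not fixed. Pnoc, the nociceptin precursor, was at 25.57 and 26.43 TPM. Cartpt, which gives the CART peptides, was at 21.28 and 26.19 TPM. Gal, the galanin precursor, was at 22.03 and 23.40 TPM. Each of these neighbours overlapped the next in its interval in at least 1 library. Nppc, the C-type natriuretic peptide precursor, was at 16.86 and 22.22 TPM, and Adcyap1, which gives PACAP, was at 18.91 and 19.94 TPM. Calca was at 18.71 and 17.94 TPM, and Pdyn, the dynorphin precursor, at 18.49 and 16.77 TPM. The next neighbours that stood apart in both libraries were Pdyn and Nts, the neurotensin precursor, which was at 11.10 and 13.25 TPM.

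The lower precursors that still reached 1 TPM in both libraries ran from Grp to Rln3. Grp, the gastrin-releasing peptide precursor, was at 11.13 and 9.79 TPM, Crh, the corticotropin-releasing hormone gene, at 5.58 and 8.02 TPM, and Nmb, for neuromedin B, at 6.46 and 6.40 TPM. Calcb was at 7.43 and 5.14 TPM. Npff, Trh, Pomc, Vip, Nmu and Rln3 had means between 1.51 and 3.33 TPM. The level of Npff, on 46 and 52.21 expected counts, is uncertain, since it shares 1100 bases on the same strand with Gm28047. That gene was at 0 and 0.12 TPM. Rln3, the relaxin-3 gene known from the nucleus incertus of the pons, had 20 and 21 counts. Over all 30 precursors, 5 of 29 neighbours in the order stood apart in both libraries, and 14 changed places between them.

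The 5 lowest precursors were near the floor. Hcrt, for the orexins, had 6 and 5 counts, Oxt, for oxytocin, 2 and 3, and Pmch, for melanin-concentrating hormone, 4.38 and 5.73. Cort, for cortistatin, had 5 and 8 counts, and Ucn, for urocortin, 2 and 1. All 5 lay between 0.1 and 0.54 TPM in each library, and levels this low cannot be put in order at this depth.

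Members were compared in 20 chosen pairs, of peptide precursors or of granule proteins and enzymes, by the log2 ratio of their TPM in each library. In 19 of the 20 the direction was the same in both libraries, with deposited intervals apart in each. Among the opioids, Penk was 9.82-fold above Pdyn (log2 3.30 ± 0.31, SD, n = 2) and 6.65-fold above Pnoc, and Pnoc was 1.48-fold above Pdyn. Tac1 exceeded Tac2, the neurokinin B precursor, 121-fold (log2 6.91 ± 1.14), where Tac2 had 9 and 31 counts. Sst exceeded its relative Cort 801-fold, where Cort had under 10 counts a library, and was 2.50-fold above Npy. Calca was 2.96-fold above Calcb (log2 1.57 ± 0.33). Parts of these genes are similar, as printed above, but both had whole expected counts, 418 and 410 for Calca and 161 and 114 for Calcb. Whether reads were shared between the 2 genes was not tested. Adcyap1 exceeded Vip, its relative in the secretin family, 10.8-fold, and Grp exceeded Nmb 1.62-fold. Nmb shares 188 bases on the same strand with Sec11a, a gene at 132.59 and 141.81 TPM, so its level is uncertain. The pair that was not called was Avp and Oxt, which encode vasopressin and oxytocin and lie 3.565 kb apart on chromosome 2. Avp was above Oxt in replicate 1 by 3.47 on the log2 scale and below it in replicate 2, at -1.75.

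The granins were abundant as a group, and the 2 libraries gave similar levels. Pcsk1n, which encodes proSAAS, an inhibitor of the convertase PC1/3, was highest at 254.70 and 271.61 TPM. Scg5, which encodes 7B2, the chaperone of the convertase PC2, followed at 191.33 and 222.12 TPM. Scg2 was at 160.73 and 195.31 TPM and Chga, for chromogranin A, at 162.78 and 184.49 TPM, and these 2 changed places between the libraries. Chgb, for chromogranin B, was at 94.84 and 110.76 TPM, and Scg3, a granin that binds chromogranin A, at 94.21 and 96.71 TPM. Vgf, a granin induced by nerve growth factor, stood apart at 11.82 and 14.26 TPM. Between neighbours, 4 of 6 were apart in both libraries. Chga exceeded Chgb 1.69-fold (log2 0.76 ± 0.03, SD, n = 2), and Scg2 exceeded Scg3 1.86-fold and Vgf 13.6-fold.

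The 3 enzymes differed widely in level. Cpe, the carboxypeptidase that trims peptide ends and is also a sorting protein of granules, was at 598.51 and 698.72 TPM, above 99.3% of protein-coding genes. Pcsk2, for the convertase PC2, was at 21.08 and 19.57 TPM, and Pcsk1, for PC1/3, at 5.87 and 5.27 TPM. Cpe was 31.8-fold above Pcsk2, and Pcsk2 was 3.65-fold above Pcsk1. Both convertases were far below the genes of their binding partners, since Scg5 was 10.1-fold above Pcsk2 and Pcsk1n was 47.3-fold above Pcsk1. The summed granin level, 970.41 and 1095.26 TPM, was close to that of all 30 precursors in each library. For Cpe, Pcsk1n, Scg2 and Chga the deposited TPM lay outside its own deposited interval in both libraries, so gaps between these genes are less certain than the intervals show. The length the authors used for the Pcsk1 transcript was 2677 bases, against 5040 in the annotation used here, which bears on its TPM. Adcyap1 (2088 against 3392 bases) and Grp (862 against 1319) differed likewise. The lead transcripts of 24 of 40 members had the same length in both annotations.

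Splicing decides which peptides some precursors can give, and most members with several transcripts had similar shares in both pools. Of the 40 members, 25 had 1 listed transcript, and 14 of the other 15 had a mean of at least 1 TPM. The leading transcript was the same in both libraries for these 14, and it held less than 90% of the gene's TPM in at least 1 library for 6 of them, namely Tac1, Scg2, Penk, Npff, Grp and Vgf. For Calca, the CGRP transcript held 97.70% in replicate 1 and 96.42% in replicate 2. The calcitonin transcript held the other 2.30% and 3.58%, on 8.33 and 12.74 expected counts. Calca message was thus mostly CGRP message in both pools.

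Tac1 was split mainly among 3 coding transcripts, and another coding one held 0.11% and 0.37%. The gamma form, which lacks the 45-base exon, held 43.11% and 44.16% of Tac1 TPM. The beta form, which has both exons, held 31.23% and 29.36%. The alpha form, which lacks the 54-base exon, held 25.47% and 25.99%. The exon that carries neurokinin A was therefore in transcripts with 74.34% and 73.52% of Tac1 TPM.

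Scg2 was divided nearly evenly. The transcript with the 120-base stretch printed above held 51.28% and 54.65% of its TPM, and the transcript without it 48.72% and 45.35%. A second coding transcript of Penk, listed at 721 bases against 1449 for the leading one, held 24.85% and 23.83%. A retained-intron transcript of Npff held 28.20% and 33.22% of its level, on 20.42 and 26.24 expected counts. Grp was the gene in which the libraries differed most in this respect, since 1 minor coding transcript held 10.72% in replicate 1 and was listed at 0 in replicate 2. These shares come from short reads assigned by a model, and no interval on them was used here.

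**Figure D2:**
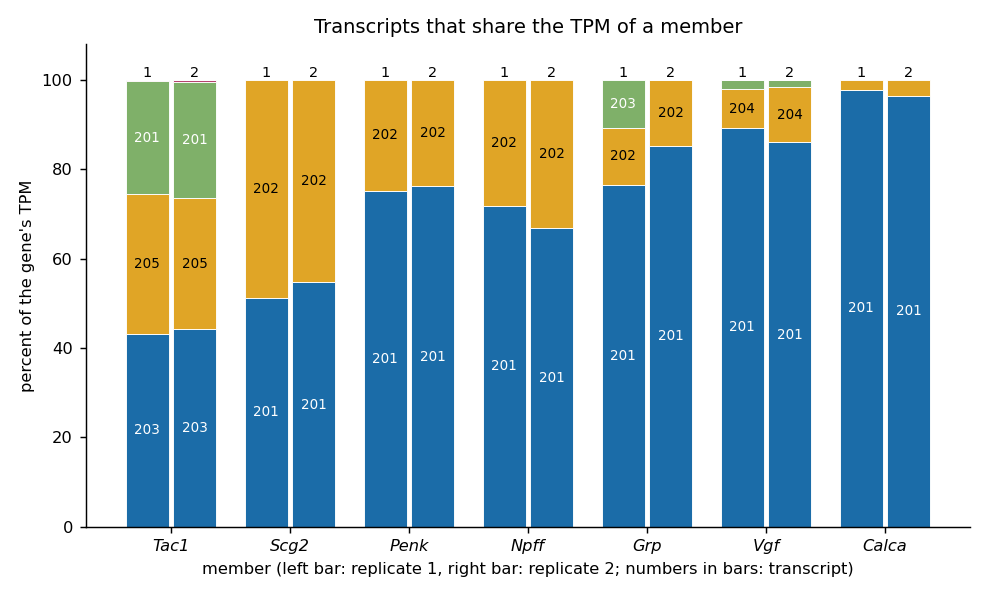
Percent of the gene's TPM held by each transcript of Tac1, Scg2, Penk, Npff, Grp, Vgf and Calca, with replicate 1 as the left bar and replicate 2 as the right bar; numbers inside the bars are annotation suffixes of the transcripts. The 3 main coding transcripts of Tac1 (gamma, beta and alpha from the bottom) and the 2 of Scg2 keep similar shares in both pools, and the CGRP transcript (lowest block) fills over 96% of both Calca bars.

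Receptor genes were compared with the precursors of their ligands. Of 54 peptide receptor and receptor-partner genes listed, 53 were measured, Galr3 is not analysed here, and the median of the 53 was 3.16 TPM. Of these, 35 reached 1 TPM in both libraries. The highest were Ramp2, a partner of calcitonin-family receptors, at 88.1 ± 4.70 TPM, the nociceptin receptor Oprl1 at 79.7 ± 1.53, the PACAP receptor Adcyap1r1 at 59.3 ± 4.72, and the somatostatin receptor Sstr2 at 27.1 ± 0.099 (SD, n = 2). Listed receptors were paired with 26 of the 30 precursors, and Calcb, Cort, Ucn and Cartpt were left unpaired. Calcb, a second CGRP gene, could have been set beside the same receptor genes as Calca. Cort could likewise have been set beside those of Sst, and Ucn beside that of Crh. The counts that follow depend on this choice. Of the 26, 19 were at 1 TPM in both libraries together with at least 1 of their receptors. In 15 of the 21 detected precursors that were paired, the ligand gene was above its highest receptor gene in mean TPM.

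For the most abundant peptides the ligand gene was far above the receptor. Sst was 12.7-fold above Sstr2, while Sstr1 was at 18.9 ± 1.31 TPM, Sstr4 at 3.16 ± 0.51, and Sstr3 and Sstr5 below 1 TPM. Penk was 64.4-fold above the mu-opioid receptor gene Oprm1, at 2.76 and 2.64 TPM, and the delta receptor gene Oprd1 was at 0.72 and 1.13 TPM. The Oprm1 values lie below their own deposited intervals, 3.51 to 5.99 and 3.50 to 5.74 TPM, so that fold is uncertain. Npy was 19.0-fold above Npy1r, and Npy2r and Npy5r were also above 1 TPM. Tac1 was 39.3-fold above Tacr1, the receptor of substance P, which was at 4.18 and 2.78 TPM, and Tacr2 had 1 and 0 counts. Cck was 9.41-fold above Cckbr, and Cckar was at 0.42 and 0.59 TPM. Gal was 6.94-fold above Galr1, at 3.28 ± 0.26 TPM, and Nppc was 1.99-fold above Npr2, at 9.81 ± 1.08 TPM, with Npr3 below 1 TPM.

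In mean TPM, the reverse order was found for 6 detected precursors, and for Calca it turned on 1 library. Pnoc was at 26.0 ± 0.61 TPM against 79.7 for Oprl1, and Adcyap1 at 19.4 ± 0.73 TPM against 59.3 for Adcyap1r1. Calca, at 18.3 ± 0.54 TPM, lay close to Ramp1 at 20.6 ± 4.56, which with Calcrl at 12.7 ± 1.61 forms the CGRP receptor. Calca was above Ramp1 in replicate 1 (18.71 against 17.35 TPM) and below it in replicate 2 (17.94 against 23.80), and above Calcrl in both. Crh was near Crhr1 (6.80 ± 1.73 against 8.05 ± 0.71 TPM), a difference of means within the SD of Crh. Within each library Crh was the lower, at 5.58 against 7.54 TPM in replicate 1 and 8.02 against 8.55 in replicate 2. Their deposited intervals were apart in replicate 1 and overlapped in replicate 2. Pomc and Rln3 were below the melanocortin receptor gene Mc4r at 4.76 ± 0.057 TPM and the relaxin-3 receptor gene Rxfp3 at 5.33 ± 0.45 TPM.

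Among the paired precursors, 5 that were below 1 TPM in at least 1 library had a receptor gene above that level in both. Hcrt had 6 and 5 counts, whereas the orexin receptor genes Hcrtr2 and Hcrtr1 were at 8.79 ± 0.86 and 5.98 ± 1.73 TPM. Pmch was matched by Mchr1 at 5.96 ± 0.96 TPM, Tac2 by Tacr3 at 5.31 ± 0.31, Avp by Avpr1a at 3.50 ± 0.071, and Oxt by Oxtr at 2.07 ± 0.26. Vip and Nmu showed the opposite case, a precursor above 1 TPM with no listed receptor at that level in both libraries. Vipr1 and Vipr2 were below 1 TPM, as were Nmur1 and Nmur2, though Vip and Adcyap1 share the former pair. The deposited TPM of Vipr2, 0.91 and 0.60, lies below its own intervals, which start at 0.98 and 0.63 and extend above 1 TPM, so its place under that level is uncertain. The same holds for Vipr1, whose intervals ran from 0.37 to 2.33 and from 0.23 to 1.37 TPM. Its TPM of 0.22 in replicate 2 lies below its own interval.

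**Figure D3:**
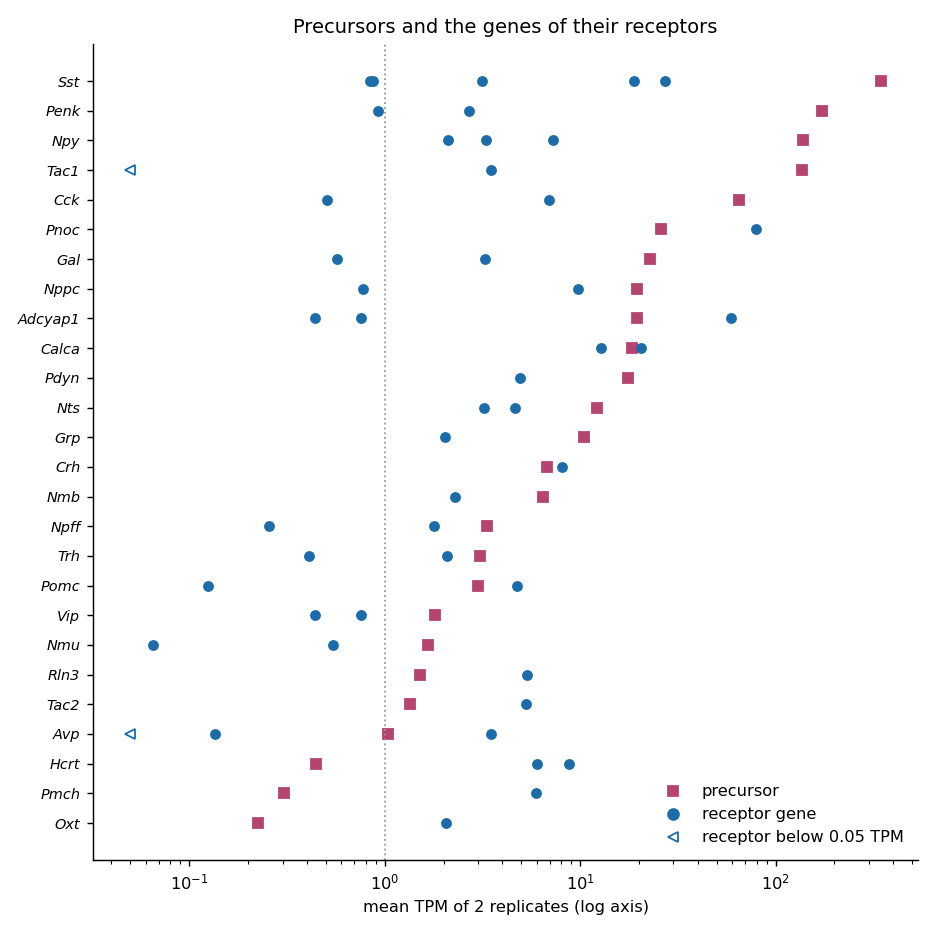
Mean TPM of 2 replicates (log axis) of 26 precursors (squares) and of the receptor genes of each (circles, with open triangles for receptors below 0.05 TPM), ordered by precursor level, with a dotted line at 1 TPM. Receptor genes lie mostly between 0.1 and 30 TPM at every precursor level, so the squares of the top precursors lie to their right and those of Hcrt, Pmch and Oxt to their left.

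Between the 2 pools most members differed little. Ratios of replicate 2 over replicate 1 were taken from counts scaled by TMM, over all genes with a mean of at least 1 TPM, and 35 members entered. Of these, 2 were more than 2-fold apart, against 4.5% of 16037 genes and 1.51% of 13843 protein-coding genes. Tac2 was the 1 member higher in replicate 2, where 2.96% of all genes were, and Avp the 1 member higher in replicate 1, where 1.55% were. Both reached the mean of 1 TPM only through the library in which they were high, so nothing is read from their number. The median log2 ratio of the 35 was 0.17, and that of all genes was -0.0027. Of the 35, 26 were higher in replicate 2, against 46.9% of protein-coding genes. Per the deposited intervals, 17 of the 35 did not overlap between the libraries, against 31.4% of protein-coding genes. Scaling to the spike-ins, which held 2.18% and 1.59% of counts, moves every gene by 0.45 toward replicate 2, and then 33 of the 35 members were higher there, against 94.5% of protein-coding genes.

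The shift was small and shared by the granins. All 7 were higher in replicate 2, from 0.088 for Scg3 to 0.33 for Scg2 on the log2 scale. The deposited intervals of 6 of the 7 did not overlap, against 31.4% of protein-coding genes with a mean of at least 1 TPM. That share is not matched for level, since the median of mean TPM was 174 for the granins and 19.0 for those genes. Nothing about granins is therefore read from it. For Pcsk1n, Scg2 and Chga, which are among the 6, the TPM lay outside its own interval in both libraries. Cpe was higher by 0.27, while Pcsk1 and Pcsk2 were at -0.11 and -0.06, values that turn positive under spike-in scaling. Among the 25 precursors, 18 were higher in replicate 2, led after Tac2 by Crh at 0.57, Nmu at 0.48, Nppc at 0.45, Cck at 0.40, Sst at 0.39, and Penk and Cartpt at 0.35. Crh passes 2-fold under spike-in scaling, at 1.02. A list of 10 general neuron genes had a median of 0.05, with 8 of 10 higher in replicate 2. The intervals of 7 of these 10 did not overlap.

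Calcb was the lowest after Avp, at -0.48 (161 and 114 counts, 7.43 and 5.14 TPM), with intervals that did not overlap, whereas Calca was at -0.01. Under spike-in scaling Calcb was at -0.03. A list of 12 markers of sensory ganglia, whose neurons make CGRP, summed to 135.12 and 120.62 TPM, and 7 reached 1 TPM in both libraries. The median log2 ratio was -0.27 over the 8 with a mean of at least 1 TPM. A list of 8 adrenal, enteric and autonomic genes had a median of -0.22 over the 7 with such a mean. The part of such cells in the Calcb ratio was not tested.

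**Figure D4:**
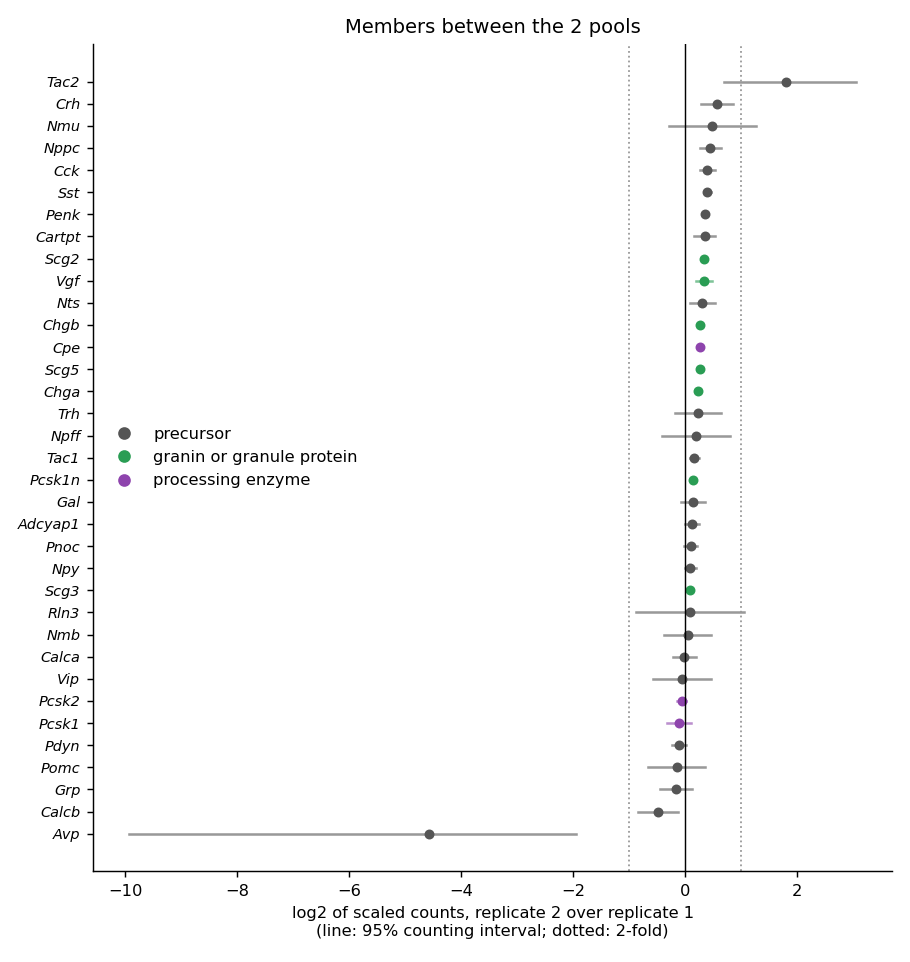
Log2 ratio of scaled counts, replicate 2 over replicate 1, for the 35 members with a mean of at least 1 TPM; lines are 95% counting intervals and dotted lines mark 2-fold. The points cluster just right of 0 with the granins among them, and Tac2 and Avp alone lie beyond the dotted lines.

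Tac2 had 9 counts in replicate 1 and 31 in replicate 2, or 0.62 and 2.07 TPM. Its count ratio was 3.48 (95% exact counting interval 1.62 to 8.31), and the deposited intervals did not overlap. Avp went the other way, with 24 counts in replicate 1 and 1 in replicate 2, or 2.00 and 0.08 TPM. Its count ratio of replicate 1 over replicate 2 was 23.8 (95% exact counting interval 3.87 to 977). Both differences are descriptions of these libraries. Counting intervals cover counting error only, and reads without molecular identifiers are not independent molecules.

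Markers of brain regions rostral to the hindbrain also differed between the pools. Avp is known from hypothalamic neurons. Of 15 hypothalamus and pituitary markers, 3 reached 1 TPM in both libraries (among them Otp and Lhx3, which are also expressed outside the hypothalamus and pituitary), and the list as a whole summed to 12.19 and 11.36 TPM. Its genes differed in direction. Otp, its highest gene, had 258 counts in replicate 1 and 338 in replicate 2, and Lhx3 had 186.97 and 143.87. Nkx2-1, a transcription factor of the ventral hypothalamus, had 24 counts in replicate 1 and 0 in replicate 2, at least 7.92-fold higher when the library at 0 is set to a floor of 3 counts. Fezf1 had 23 and 0 counts, Pitx1 18 and 0, and Sim1 20 and 7. Rax and Six6 were at 0 in both libraries. Gh, the growth hormone gene, had 0 and 10 counts, at least 3.37-fold higher in replicate 2, and Cga, a pituitary hormone subunit gene, had 0 and 6. In the forebrain list, 3 of 13 reached 1 TPM in both libraries, Emx1 had 32 and 0 counts, Dlx1 362.91 and 5, and Dlx5 101 and 1. Lhx6 had 221 and 29 counts, Fezf2 102 and 3, Six3 118.62 and 3, Dlx2 99 and 10, Tbr1 112 and 36, and Emx2 37 and 2. The highest of that list, Neurod6, Bcl11b and Lhx2, were closer, with 1724 and 1478, 2043 and 1675, and 484 and 326 counts. The part of such tissue in the Avp ratio was not tested.

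**Figure D5:**
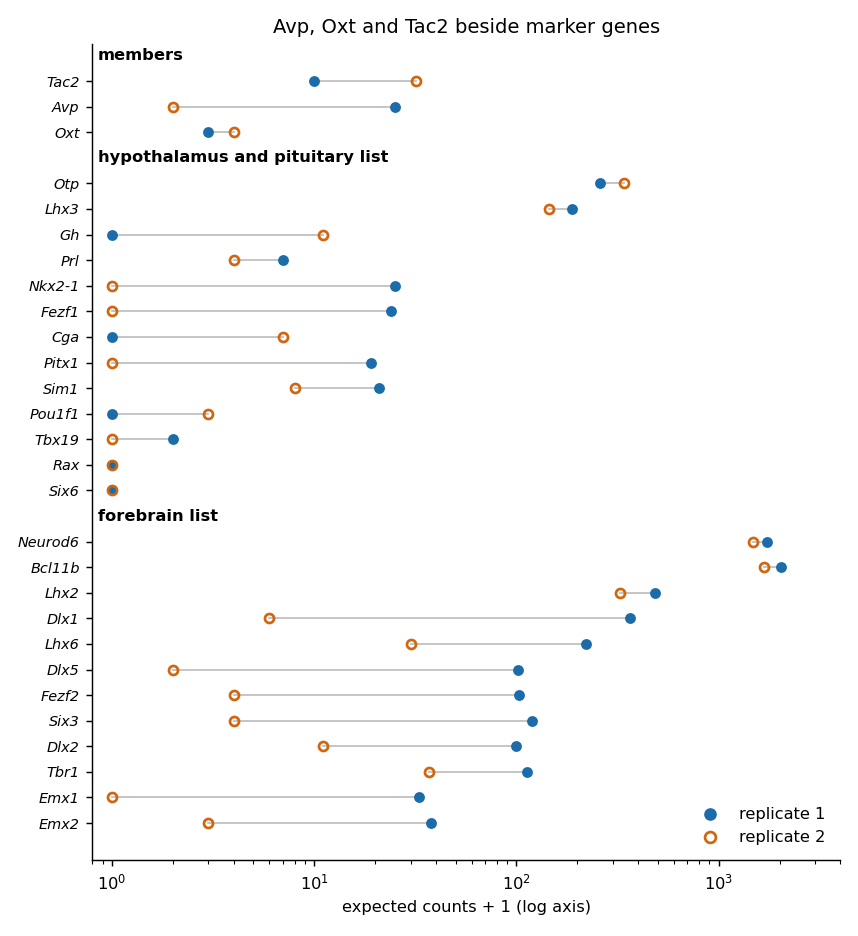
Expected counts plus 1 (log axis) in replicate 1 (filled blue) and replicate 2 (open orange) for Tac2, Avp and Oxt and for genes of the hypothalamus and pituitary list and of the forebrain list. Nkx2-1, Fezf1 and Pitx1 lie to the right in replicate 1 and at 0 counts in replicate 2, as does Emx1, while Otp, Gh, Cga and Tac2 are higher in replicate 2.

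The promoters of members were searched for the cAMP response element TGACGTCA, the motif bound by CREB, which is known from several peptide genes. RefSeq promoters of 250 bases before to 50 bases after the start, on GRCm38.p6, were given for 32 of the 40 members. The 8-base motif, which reads the same on both strands, was in 6 of the 32, or 18.75%, against 2.03% of 27025 genes. It was in the promoters of 1 of 42 receptor genes and 1 of 20 granule machinery genes. The shorter TGACG, searched on both strands and contained in the longer motif, was in 62.5% of the members and 23.0% of all genes. The TATAAA box, on both strands, was in 25% and 15.7%. The 30-base windows around the 6 matches are shown so that the shared core can be read beside the levels, with the motif in capitals and each on the strand of its gene, at chr13:99900777-99900806 (minus), chr2:132781559-132781588 (plus), chr13:75089768-75089797 (plus), chr1:79440076-79440105 (minus), chr16:23890874-23890903 (minus) and chr5:31138921-31138950 (minus) in turn.
Cartpt: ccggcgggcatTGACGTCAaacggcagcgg
Chgb: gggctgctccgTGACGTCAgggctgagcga
Pcsk1: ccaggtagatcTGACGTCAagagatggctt
Scg2: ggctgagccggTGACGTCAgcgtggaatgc
Sst: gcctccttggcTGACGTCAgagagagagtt
Ucn: atgttcttcgcTGACGTCAgtcggagctgt
The motif began between 112 and 44 bases before the start in these genes. They are 3 precursors, 2 granins and a convertase, and their levels ran from Ucn at 0.15 TPM to Sst at 346 TPM. A match describes the letters alone.

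Other genes of the same pathway were described from further lists. Of 30 further precursors and secreted proteins, 29 were measured (Kiss1 is not analysed here) and 13 reached 1 TPM in both libraries, led by Nxph4 at 111 ± 4.47 TPM, Cbln2 at 92.5 ± 4.07, Nucb2 at 25.3 ± 1.07 and Cbln1 at 22.8 ± 1.58 (SD, n = 2). The cerebellins Cbln1 and Cbln2 organise synapses, and Nucb2 is the nesfatin precursor. Prok2, the prokineticin 2 gene, had 20 and 5 counts. None of the 13 with a mean of at least 1 TPM was more than 2-fold apart.

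The 17 further processing enzymes had a median of 13.6 TPM, and 15 reached 1 TPM in both libraries. The highest were cathepsin L (Ctsl) at 118 ± 9.85 TPM, the aminopeptidase Rnpep at 83.4 ± 6.70, the site-1 protease Mbtps1 at 39.2 ± 4.97 and Cpxm1 at 30.6 ± 3.38, a relative of Cpe. The list had 0 genes beyond 2-fold, and its median log2 ratio was -0.14, so 7 of 17 were higher in replicate 2.

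Of 28 genes of granule release and membrane machinery, 26 reached 1 TPM in both libraries. Rab3a, a vesicle GTPase, was at 527 ± 6.80 TPM, the SNARE genes Vamp2 and Snap25 at 367 ± 43.6 and 274 ± 2.12, and Resp18, a granule protein of endocrine cells, at 243 ± 45.0. Rab3a, Vamp2 and Snap25 also serve synaptic vesicles, and their TPM lay outside their own deposited intervals in both libraries. Scgn, the calcium-binding secretagogin, had 48 and 19 counts and was 2.50-fold higher in replicate 1 by counts (95% exact counting interval 1.44 to 4.51), the 1 gene of 27 beyond 2-fold. At 1.46 and 0.56 TPM, it too reached a mean of 1 TPM only through the library in which it was high. For the receptors, 0 of 35 were beyond 2-fold, and the median log2 ratio was 0.17, with 26 of 35 higher in replicate 2. Galr2, a galanin receptor gene below a mean of 1 TPM, had 39 and 10 counts.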

How the data were processed

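Total RNA libraries from 2 hindbrain pools, 1 per replicate, were analysed from the authors' gene and transcript tables. The authors deposited expected counts, TPM, FPKM, TPM interval bounds (treated as scores here) and the percent of gene TPM held by each transcript, per the file headers. Per the deposited notes, the annotation behind them was GENCODE M4 and the assembly mm10. Tool, version and strand use were not given in the sources used here, so antisense overlaps (Pcsk2 with Pcsk2os1, Penk with A830012C17Rik, Pmch with Parpbp) cannot be told apart. Names, positions and transcript sequences were read from GENCODE M21, which is on GRCm38 (mm10), with 884 of 43346 identifiers unmatched, and promoters from RefSeq.

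Expected counts were rounded, scaled by TMM in edgeR 4.0.16 (R 4.3.3) without spike-ins, and compared as log2 ratios with a prior count of 0.5. The ratio step was tested on simulated data. DESeq2 1.42.0 size factors and spike-in totals were alternatives. Detection meant 1 TPM in both replicates, and over 2-fold was called. Neighbours and pairs were called apart where their deposited intervals were separate in each library. Exact conditional intervals were at 95%, from SciPy 1.17.1 in Python 3.11.15. The labels call the pools biological replicates and say no more of how they were separated, so the spread between them may be partly technical.

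The members, lists and pairs were chosen with earlier results of these data known. The rule for names covered all members, the 4 highest genes of each companion or marker list, list genes beyond 2-fold with at least 10 counts in a library, and receptors of the 10 most abundant peptides. It was followed for members, companions and receptors. Of the marker genes it covers, some are given only by their lists, and single values of some others are not reported here. Receptors of lower peptides, En2, Cga, Rax, Six6 and which markers to print were chosen after values were seen.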

Additional observations from a re-analysis of the deposited data

How the results depend on the processing

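The count of 33 detected members ranged from 27 at a minimum of 5 TPM to 34 at 0.5 TPM, with either replicate alone giving 34 and FPKM 31. The number of members beyond 2-fold was 2 under TMM, DESeq2 size factors, deposited TPM ratios, a prior count of 5 and no filter, 3 under spike-in totals, and 0 over genes with a mean of at least 5 TPM, since Tac2 and Avp lie below that level. The median log2 ratio of members was 0.62 under spike-in totals and 0.17 under TMM, the difference being the 0.45 by which that scaling moves every gene. Leaving out 1 replicate moved the precursor median from 6.62 to between 6.95 and 7.21 TPM. Coding transcripts alone moved the enzyme median from 20.3 to 18.6 TPM, since Pcsk2 has a non-coding transcript. Pairs called numbered 19 or 20 with either replicate alone, and Avp and Oxt made the difference. No member beyond 2-fold and no called pair changed direction under these alternatives. Protein sequence features of the precursors were planned and not run. No paired analysis was possible because there is 1 group. With 1 library a pool, members under 10 counts cannot be ordered at this depth.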
